A study of Solanum lycopersicum with 24 samples.

Results

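The methylerythritol phosphate (MEP) pathway of tomato plastids was followed through 8 genes, taken by locus number from 34725 gene models: DXS1 (Solyc01g067890), DXS2 (Solyc11g010850), DXR (Solyc03g114340), MCT (Solyc01g102820), CMK (Solyc01g009010), MDS (Solyc08g081570), HDS (Solyc11g069380) and HDR (Solyc01g109300). RNA came from glandular cells of type VI leaf trichomes, the small glands of tomato leaves that make monoterpenes, sesquiterpenes and flavonoids. The genotypes were the anthocyanin-free mutant af and the complemented lines CHI9 and CHI4, all grown in soil for 5 weeks at 28 °C under 250 microeinsteins of light. Every group carries the af background, and the labels give neither the promoter of the complementing construct nor the number of plants pooled. Each genotype was sampled in 4 collections, which gave 12 libraries, and 1 library per genotype shares each sampling time. No wild-type library was analysed here.

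The MEP pathway turns pyruvate and glyceraldehyde 3-phosphate into the C5 units isopentenyl diphosphate and dimethylallyl diphosphate. DXS makes deoxyxylulose phosphate and is widely regarded as a main control point, DXR converts it into methylerythritol phosphate, MCT, CMK and MDS build and cyclise the cytidyl intermediate, and the iron-sulphur enzymes HDS and HDR carry out the last reductions. The products feed carotenoids, the chlorophyll side chain and, in tomato type VI glands, the monoterpenes for which these glands are known. The af gene is known to encode the chalcone isomerase CHI1 of flavonoid synthesis, which lies outside this pathway.

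All levels are counts-per-million (CPM) values scaled by the trimmed mean of M values (TMM), a correction for differences in RNA composition between libraries. Libraries held 20853336 to 70949450 gene counts in af, 8993182 to 46115359 in CHI9 and 33952584 to 51990377 in CHI4. Before TMM scaling, 3 counts correspond to 0.0423 to 0.334 CPM. Every member lay far above that floor and all 8 passed the low-count filter. CHI1, the check of the labels, had 210.6 to 339.9 CPM in af and 418 to 1168 CPM in the 8 libraries of the lines (log2 difference -1.53, edgeR adjusted p = 7.76e-05). Among libraries, CHI9 replicate 2 was the shallowest. In af replicate 4 the second sequencing lane gave 0.450 times the counts of the first, with 0.393 times for MDS and 0.624 times for CMK. In CHI4 replicate 4 the lanes disagreed for HDR and MCT. The genotype tests were also run without these 3 libraries.

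Most MEP pathway transcripts were at lower levels in the mutant than in the lines. Set against the mean of CHI9 and CHI4, 7 of the 8 members were lower in af, and DXS1 did not pass the test (edgeR quasi-likelihood test, adjusted p under 0.05 over 18326 genes). In the same comparison 13.6% of all tested genes were called lower and 12.9% higher. The median log2 difference was -1.29 over the 8 members and 0.07 over all tested genes. Summed over the 8 members, 0.703%, 0.685%, 0.733% and 0.749% of all gene counts fell on the pathway in af collections 1 to 4. The corresponding shares were 1.13%, 1.20%, 1.54% and 1.57% in CHI9, and 1.33%, 1.14%, 1.39% and 1.46% in CHI4. No af share reached any share of a line. In bulk RNA, fewer gland cells of a kind and less RNA per cell cannot be told apart.

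**Figure D1:**
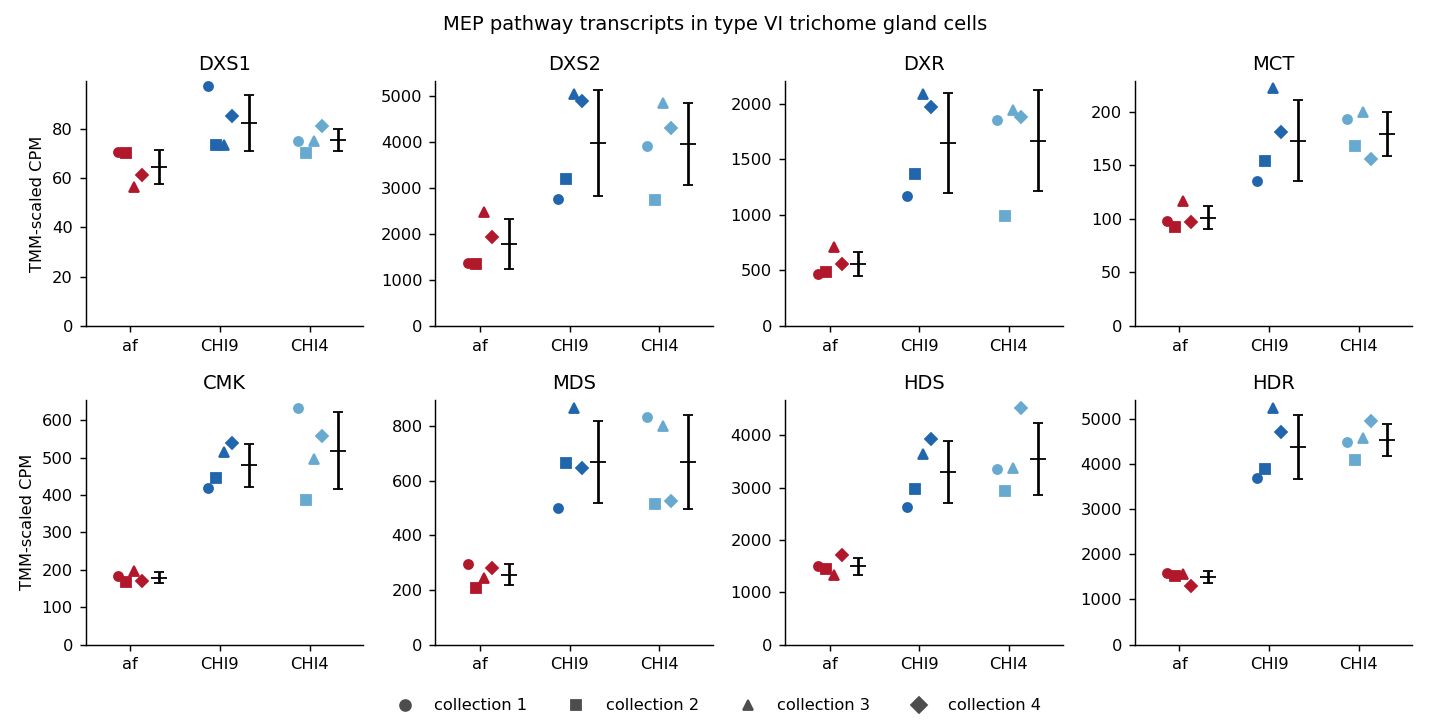
TMM-scaled CPM (linear axes from 0) of the 8 MEP pathway genes in each library of af, CHI9 and CHI4; symbols mark the collection, and the bars give the mean ± SD of 4 libraries. All 4 af libraries lie below all 8 libraries of the lines for every gene except DXS1, whose highest af value (70.5 CPM) just exceeds the lowest value of a line (70.2 CPM).

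The entry step is encoded by several DXS genes, and their values differed. DXS1, the DXS gene found in most plant tissues, had 70.5, 70.4, 56.5 and 61.1 CPM in af collections 1 to 4, against 97.4, 73.4, 73.5 and 85.2 CPM in CHI9 and 75.2, 70.2, 75.1 and 81.3 CPM in CHI4. The af values of collections 1 and 2 touched the low end of the lines, and those of collections 3 and 4 lay below it. DXS1 averaged 64.6 ± 6.97 CPM in af, 82.4 ± 11.5 CPM in CHI9 and 75.4 ± 4.58 CPM in CHI4 (SD, n = 4 each). The log2 difference of af from the mean of the lines was -0.29 (SE 0.122, 95% interval -0.54 to -0.03, edgeR adjusted p = 0.0907). Without scaling factors the value turned to 0.14 (edgeR adjusted p = 0.410), while the median of all genes moved from 0.07 to 0.50.

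DXS2, the DXS gene associated with specialised isoprenoids, had 1367, 1346, 2471 and 1937 CPM in af, against 2761, 3198, 5033 and 4872 CPM in CHI9 and 3914, 2738, 4828 and 4305 CPM in CHI4. In each collection af lay below both lines, and the highest af library lay below the lowest library of a line. DXS2 was 2.22-fold lower in af (log2 difference -1.15, SE 0.217, edgeR adjusted p = 0.000523). Another DXS-like locus, DXS3 (Solyc08g066950), averaged 24.6 ± 3.24 CPM in af, 16.2 ± 4.79 CPM in CHI9 and 22.8 ± 0.976 CPM in CHI4 (SD, n = 4 each), with a log2 difference from the mean of the lines of 0.35 that did not pass the test (edgeR adjusted p = 0.150). DXS3 was called higher in af against CHI9 alone (log2 difference 0.59, edgeR adjusted p = 0.0466), and against the mean of the lines without scaling factors (0.79, edgeR adjusted p = 0.00184).

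DXR, the reductoisomerase that commits carbon to the pathway, had 468, 486, 709 and 559.9 CPM in af, against 1165, 1365, 2088 and 1972 CPM in CHI9 and 1855, 990.1, 1944 and 1877 CPM in CHI4. The af libraries formed a low group of their own, and CHI4 replicate 2 stood well below the other CHI4 libraries without reaching af. DXR was 2.98-fold lower in af (log2 difference -1.58, SE 0.211, edgeR adjusted p = 1.56e-05), and the log2 difference was -1.67 without CHI4 replicate 2.

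The 3 middle enzymes were all lower in af, MCT by the smallest amount of the 7 called members. MCT, which adds the cytidyl group, had 98.1, 92.3, 117 and 97.2 CPM in af, against 136, 154, 222 and 181 CPM in CHI9 and 193, 168, 199.7 and 155 CPM in CHI4. The groups did not overlap, but the highest af library (117 CPM) came close to the lowest library of a line (136 CPM). MCT was 1.74-fold lower in af (log2 difference -0.80, 95% interval -1.10 to -0.50, edgeR adjusted p = 0.000293).

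CMK, the kinase of the cytidyl intermediate, had 183, 167, 197 and 169 CPM in af, against 418, 446, 516 and 539 CPM in CHI9 and 632, 388, 497 and 558 CPM in CHI4. Every af library held less than any library of a line, with a wide gap between 197 CPM and 388 CPM. CMK was 2.79-fold lower in af (log2 difference -1.48, SE 0.149, edgeR adjusted p = 6.37e-07). MDS, the cyclase, had 293, 208, 243 and 280.4 CPM in af, against 498, 666, 863 and 645 CPM in CHI9 and 832, 513, 798 and 527 CPM in CHI4. The lines scattered more than af in CPM, yet none of their libraries reached the af range. MDS was 2.61-fold lower in af (log2 difference -1.38, SE 0.182, edgeR adjusted p = 1.27e-05).

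The last reductions showed both a moderate and a large difference. HDS, which opens the cyclic diphosphate, had 1493, 1442, 1323 and 1711 CPM in af, against 2627, 2979.9, 3636 and 3934 CPM in CHI9 and 3355, 2925, 3381 and 4523 CPM in CHI4. Both lines were above af in all 4 collections. HDS was 2.29-fold lower in af (log2 difference -1.20, SE 0.163, edgeR adjusted p = 1.94e-05). HDR, which releases both C5 products, had 1584, 1524, 1558 and 1307 CPM in af, against 3702, 3889.9, 5237 and 4707 CPM in CHI9 and 4481, 4098, 4591 and 4956 CPM in CHI4. The af libraries were tightly grouped, and the lowest library of a line lay far above them. HDR was 2.98-fold lower in af (log2 difference -1.58, SE 0.150, edgeR adjusted p = 3.39e-07).

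In each of the 4 collections the 7 called members were lower in af than in both lines. For all 7, every af library lay below every library of both lines, as did 8.68% of all tested genes. Within single collections, the log2 difference of af from the mean of the lines ranged from -1.89 to -1.36 for HDR, from -1.78 to -1.26 for DXR and from -1.70 to -1.31 for CMK. It ranged from -1.77 to -1.06 for MDS, from -1.41 to -0.99 for HDS, from -1.27 to -0.996 for DXS2 and from -0.85 to -0.72 for MCT. For DXS1 the range was -0.45 to -0.03, and af lay below both lines in 3 of 4 collections. With af replicate 4, CHI4 replicate 4 and CHI9 replicate 2 left out together, a setting chosen after the data were seen, 7 members were again lower.

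Each line was also used by itself as the control of af, in comparisons that share the af libraries. Against CHI4, 7 of the 8 members were lower in af, where 11.2% of all tested genes were. Against CHI9, 7 of the 8 were lower, where 11.6% of all tested genes were, and DESeq2 added DXS1 there (adjusted p = 0.0474). The log2 differences against CHI9 and CHI4 were -1.16 and -1.15 for DXS2, -1.57 and -1.58 for DXR, -0.78 and -0.83 for MCT, and -1.42 and -1.53 for CMK. They were -1.38 and -1.38 for MDS, -1.14 and -1.25 for HDS, -1.55 and -1.60 for HDR, and -0.35 and -0.22 for DXS1.

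Between the lines themselves no member passed the test in CHI9 against CHI4, where 0.0928% of all tested genes did (17 genes with edgeR, 92 with DESeq2 and 10 with limma-voom). None of the 8 had an unadjusted edgeR p under 0.05 either. The log2 differences of CHI9 from CHI4 ran from -0.11 for CMK (95% interval -0.45 to 0.22) to 0.13 for DXS1 (95% interval -0.16 to 0.42). The widest intervals belonged to DXS2 (-0.49 to 0.50) and DXR (-0.49 to 0.45), so that differences of that size between the lines were not detectable with 4 libraries each.

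**Figure D2:**
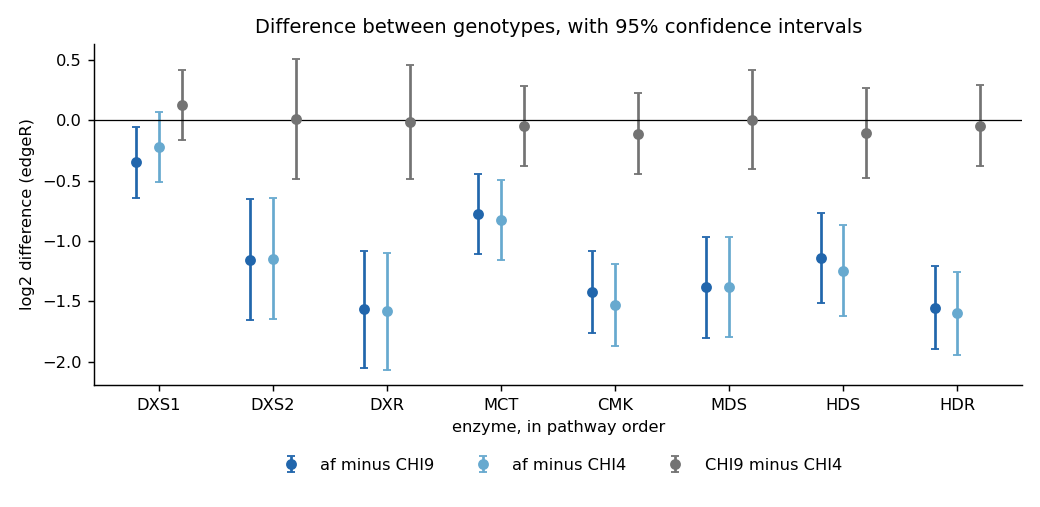
Log2 difference (edgeR fit, bars: 95% confidence interval) of af from CHI9, of af from CHI4 and of CHI9 from CHI4, with the enzymes in pathway order from left to right. The differences of af lie near -1.6 for HDR and DXR and near -0.8 for MCT, and the intervals of CHI9 from CHI4 include 0 for all 8 genes.

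Consecutive steps did not differ from the lines by the same factor. Count ratios were taken within each library, which removes any scaling between libraries. The ratio of DXS2 to DXS1 compares genes of the same step, and each other ratio sets a step against the step before it. Since each ratio also depends on transcript length, it was compared only between genotypes. Of the 7 ratios, 5, DXS2/DXS1 among them, differed between the 4 af libraries and the 8 libraries of the lines. The test was a two-sided exact permutation over all arrangements of 4 libraries among 12 (smallest possible p = 0.00202). Its p-values were adjusted over the 7 ratios (Benjamini-Hochberg). Ratios that follow each other share a gene, so the 5 are not separate results. The share of other gene pairs whose ratios differ was not computed. With arrangements restricted to swaps within a collection, the same 5 ratios each had p = 0.0123, the smallest that the 81 arrangements allow (adjusted p = 0.0173, exact permutation).

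CMK relative to MCT gave the clearest separation. The ratio was 1.86, 1.81, 1.69 and 1.74 in af, against 3.08, 2.90, 2.32 and 2.98 in CHI9 and 3.28, 2.31, 2.49 and 3.59 in CHI4. The highest af ratio lay below the lowest ratio of a line. The log2 difference was -0.67 (exact permutation p = 0.00202, adjusted p = 0.00707). In CHI4 replicate 4 the ratio was 4.28 in the first lane and 3.07 in the second, and in af replicate 4 it was 1.67 and 1.87. With the second lane alone for these libraries the log2 difference was -0.62 (exact permutation, adjusted p = 0.00471). MCT relative to DXR was the only called ratio that was higher in af, with a log2 difference of 0.76 (exact permutation p = 0.00404, adjusted p = 0.00707). That ratio was 0.209, 0.190, 0.165 and 0.174 in af, against 0.117, 0.113, 0.106 and 0.0917 in CHI9 and 0.104, 0.170, 0.103 and 0.0828 in CHI4. The single overlap came from CHI4 replicate 2, whose DXR value was low.

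DXR relative to DXS2 was lower in af by 0.39 on the log2 scale (exact permutation p = 0.00202, adjusted p = 0.00707), with 0.343, 0.361, 0.287 and 0.289 in af, against 0.422, 0.427, 0.415 and 0.405 in CHI9 and 0.474, 0.362, 0.403 and 0.436 in CHI4. The groups did not overlap but nearly touched in collection 2, at 0.361 in af and 0.362 in CHI4. HDR relative to HDS was 1.06, 1.06, 1.18 and 0.764 in af, against 1.41, 1.31, 1.44 and 1.20 in CHI9 and 1.34, 1.40, 1.36 and 1.10 in CHI4 (log2 difference -0.39, exact permutation p = 0.00404, adjusted p = 0.00707). The lowest ratio of each genotype came from collection 4. In af replicate 4 it was 0.690 in the first lane and 0.945 in the second, and in CHI4 replicate 4 it was 0.917 and 1.28, so the lanes of a library differed in this ratio by as much as the genotypes did. With the second lane alone for these libraries the log2 difference was -0.34 (exact permutation, adjusted p = 0.00471).

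DXS2 relative to DXS1 averaged 26.8 in af and 49.0 in the lines (geometric means; log2 difference -0.87, exact permutation p = 0.0182, adjusted p = 0.0255). The af ratios of 19.4, 19.1, 43.7 and 31.7 overlapped those of CHI9, which were 28.4, 43.6, 68.5 and 57.2, and of CHI4, which were 52.0, 39.0, 64.3 and 52.9. The call was lost without af replicate 1 and without af replicate 2 (exact permutation, adjusted p = 0.0764 in both cases). In af replicate 4 the ratio was 35.0 in the first lane and 25.8 in the second. The ratios of MDS to CMK and of HDS to MDS had log2 differences of 0.10 and 0.18 and did not pass the test (exact permutation, adjusted p = 0.515 and 0.457).

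**Figure D3:**
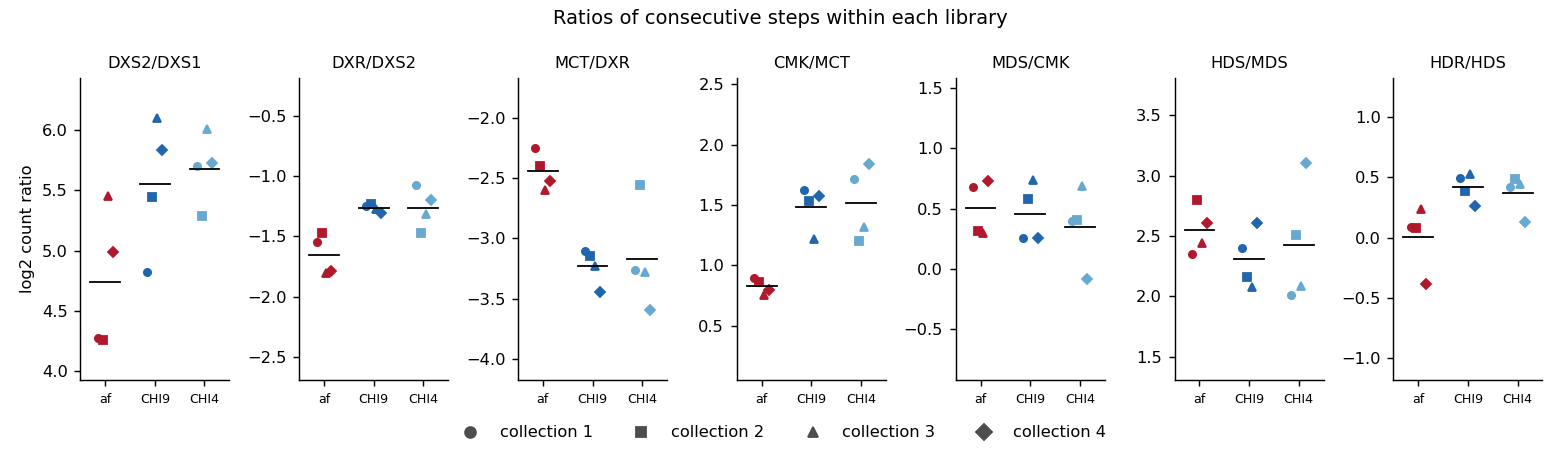
Log2 count ratio of consecutive pathway steps, and of DXS2 to DXS1 at the entry step, within each library of af, CHI9 and CHI4. Symbols mark the collection and horizontal lines the genotype means, and all panels span the same number of log2 units. CMK/MCT and DXR/DXS2 are lower in af with no overlap, MCT/DXR is higher in af, and MDS/CMK and HDS/MDS are intermixed.

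Over the 4 collections, DXS2 at the entry of the pathway was higher in the later samplings, and no other member passed the test. DXS2 differed among the collections (edgeR test with genotype in the model, adjusted p = 0.0157), and it was the only one of the 8 members to do so, where 1.93% of all tested genes did. Its mean in collections 3 and 4 was 2204 CPM in af, 4952 CPM in CHI9 and 4567 CPM in CHI4, which was 1.62, 1.66 and 1.37 times the mean of collections 1 and 2 in the same genotype. Averaged over genotypes, DXS2 was higher in collections 3 and 4 by 0.63 on the log2 scale (SE 0.111, edgeR adjusted p = 0.0119). The model held genotype and collection. The SE and p therefore leave out the spread between collections 3 and 4 and between 1 and 2. DXS2 was the only member called higher, where 0.649% of all tested genes were. That call was lost without CHI4 replicate 2 (edgeR adjusted p = 0.0512), without CHI9 replicate 4 (adjusted p = 0.0647) and when the model held only genotype and the later or earlier pair of collections (adjusted p = 0.104), and the call among all 4 collections was lost without CHI9 replicate 3 (adjusted p = 0.0570).

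DXR came next in the same model, with a log2 difference of 0.51 between the later and the earlier collections (SE 0.125, edgeR adjusted p = 0.0531). It passed with DESeq2 (adjusted p = 0.00631) and with edgeR without the low-count filter (0.000587). With edgeR it also passed without af replicate 2 (adjusted p = 0.0468) and without CHI4 replicate 1 (0.00161). Without CHI4 replicate 2, whose DXR value was low, the difference was 0.41 (edgeR adjusted p = 0.176). The DXR mean in collections 3 and 4 was 1.33 times that of collections 1 and 2 in af, 1.60 times in CHI9 and 1.34 times in CHI4. For DXS2 and DXR, both later libraries exceeded both earlier ones in each genotype, as they did for 1.54% of all tested genes. The other 6 members had log2 differences between -0.09 for DXS1 and 0.26 for HDS (edgeR adjusted p = 0.771 and 0.249). For HDR the later mean was 1433 CPM in af, 4972 CPM in CHI9 and 4773 CPM in CHI4, against earlier means of 1554 CPM in af, 3796 CPM in CHI9 and 4289 CPM in CHI4.

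The difference of af from the lines was not shown to depend on the collections. With 2 later and 2 earlier libraries per genotype, the change in the af effect ran from -0.39 on the log2 scale for HDR (95% interval -0.90 to 0.12) to 0.10 for DXS2 (95% interval -0.47 to 0.68). None of the 8 members passed, adjusted or unadjusted, and 0% of all tested genes did with edgeR, although 505 genes had an unadjusted p under 0.05 and DESeq2 called 1 gene.

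The members varied to different degrees within a genotype. The SD of log2 CPM around the genotype means was 0.405 for DXS2 and 0.391 for DXR, against a median of 0.301 over the 11784 genes that averaged 5 CPM or more. DXS1 (0.154) and HDR (0.167) were the least variable members, and only 5.77% and 8.39% of those genes had a smaller SD. CMK, MCT, HDS and MDS lay between, at 0.210, 0.220, 0.234 and 0.315.

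Likeness of pattern was measured as the root mean square distance between log2 CPM profiles over the 12 libraries, each centred on its own mean, so that both the genotype and the collection pattern count. CMK and HDR were the closest members, at 0.152 log2 units. Only 4 of the 11784 genes lay nearer to HDR than CMK did, and the median distance of all genes from HDR was 0.818. DXS2 and DXR were 0.219 apart, with 12 genes nearer to DXS2. MCT was 0.301 from DXS2, its nearest fellow member, and 1102 genes lay nearer to MCT. Among 41 listed loci, GGPPS3, a geranylgeranyl diphosphate synthase, was nearest to CMK (0.134) and to DXR (0.189), HMGS of the mevalonate pathway was nearest to HDS (0.132), and mevalonate kinase MVK was nearest to MCT (0.197). DXS1 lay farther from its nearest fellow member than any other did. That member was MCT at 0.383, 5302 genes were nearer, and its nearest listed locus was the Rubisco small subunit gene Solyc03g034220 at 0.115.

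The genes just downstream were counted from lists compiled by general knowledge of tomato. Isopentenyl diphosphate isomerases and short-chain prenyl diphosphate synthases use the C5 products, and 5 of the 5 tested loci of that list were lower in af, with a median log2 difference of -1.35, where 13.6% of all tested genes were lower and the median was 0.07. NDPS1, which makes neryl diphosphate for gland monoterpenes, averaged 768 ± 159 CPM in af, 7519.8 ± 664 CPM in CHI9 and 7959.8 ± 1039 CPM in CHI4 (SD, n = 4 each; log2 difference -3.33). The difference of NDPS1 was larger than that of any MEP member. GGPPS2, GGPPS3 and the isomerase gene IDI1 had log2 differences of -1.95, -1.35 and -1.17. The remaining tested locus was IDI2 (-0.67, named after its value was seen), which was not called without scaling factors (-0.25, edgeR adjusted p = 0.106), so that 4 loci were lower there. GGPPS1 stayed under the low-count filter with at most 0.361 CPM.

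The cytosolic mevalonate pathway, which supplies C5 units for sterols, had 7 of 11 loci lower in af, with a median of -0.96, beside the same 13.6% of all tested genes. HMG-CoA synthase HMGS averaged 159.6 ± 16.3 CPM in af, 412 ± 78.6 CPM in CHI9 and 446 ± 78.4 CPM in CHI4 (SD, n = 4 each; log2 difference -1.43). AACT2, MVD2 and MVD1, a thiolase gene and the mevalonate diphosphate decarboxylase genes, had -1.23, -1.12 and -0.999. The smallest called difference, -0.49 for the thiolase gene AACT1, lost its call without af replicate 1, 2 or 4 or CHI4 replicate 3 (edgeR adjusted p = 0.0501 to 0.0884), and moved to -0.07 without scaling factors (edgeR adjusted p = 0.760). AACT1 was called against neither CHI4 nor CHI9 alone (edgeR adjusted p = 0.0578 and 0.0588). The 4 loci not called against the mean of the lines were the HMG-CoA reductase genes HMGR1 to HMGR4, with log2 differences from -0.44 to 0.57. They were looked at as a group after their values were seen. With collection as a block HMGR1 was lower and HMGR4 higher (edgeR adjusted p = 0.0147 and 0.0310), HMGR1 was also lower without af replicate 3 (0.0466), and HMGR4 was also higher without af replicate 1 (0.0104). In the carotenoid list, 5 of 9 tested loci were lower, again beside 13.6% of all tested genes, with a median of -0.54. Those with the largest differences were the desaturase gene ZDS (-1.18), the lycopene cyclase gene LCYB2 (-0.93), the desaturase gene PDS (-0.87) and the isomerase gene CRTISO (-0.66). The remaining call, LCYB1 (-0.54), was lost without af replicate 1 (edgeR adjusted p = 0.0591), and without scaling factors 2 loci of this list were lower and 1 was higher. LCYB1 was called against CHI4 but not against CHI9 (edgeR adjusted p = 0.0141 and 0.0783). PSY1, a phytoene synthase gene named after its value was seen, had 0.57 and missed the threshold (edgeR adjusted p = 0.0616), which it passed without af replicate 1 (0.00806), CHI4 replicate 2 (0.0410) or CHI9 replicate 1 (0.0477).

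**Figure D4:**
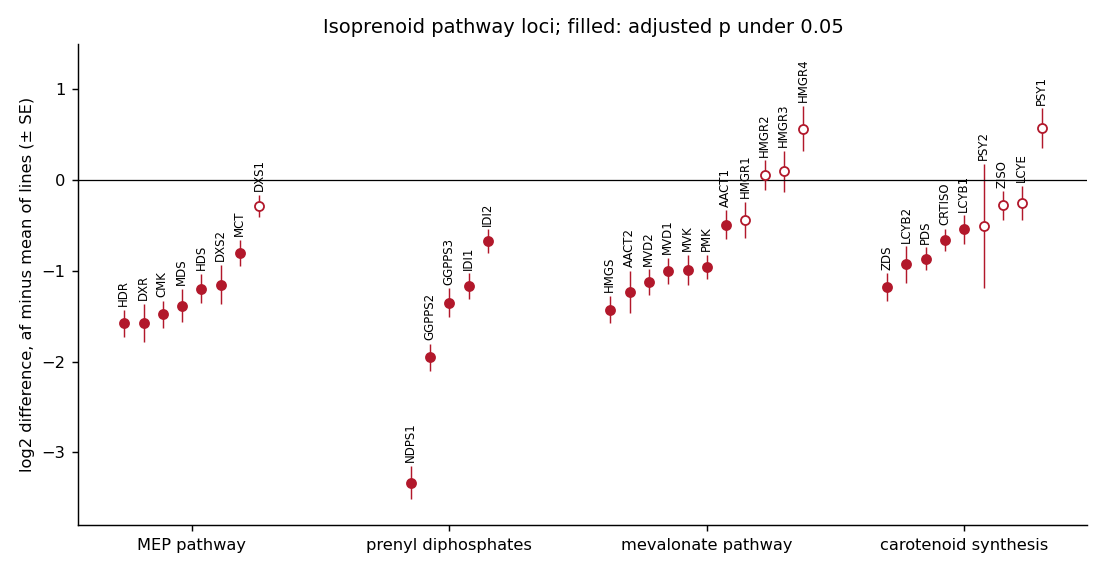
Log2 difference (± SE, edgeR) of af from the mean of CHI9 and CHI4 for the tested loci of the MEP pathway, prenyl diphosphate synthesis, the mevalonate pathway and carotenoid synthesis; filled points have an adjusted p under 0.05. All filled points lie below 0, from -0.49 for AACT1 to -3.33 for NDPS1, and DXS1, the HMGR genes and PSY1 are among the open points.

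Of the marker loci tested, 3 of 4 for type VI glands, 1 of 3 for green leaf cells and 2 of 4 for other trichome types were lower in af, where 13.6% of all tested genes were. The 4 type VI gland markers, which include NDPS1, summed to 3848 to 5131 CPM in af and 18915 to 25602 CPM in the lines, with MYC1, a gland regulator, at a log2 difference of -0.01 (edgeR adjusted p = 0.956). The 3 Rubisco small subunit loci taken as markers of green leaf cells summed to 227 to 306 CPM in af and 334 to 422 CPM in the lines. Whether gland cells express them too was not tested. The called locus was Solyc02g063150 (log2 difference -1.86). The most abundant, Solyc03g034220, was not called (-0.20, edgeR adjusted p = 0.239), nor was Solyc02g085950 (-1.29, 0.0570). The 5 acylsugar genes of other trichome types, of which 4 were tested, summed to 31.5 to 48.3 CPM in af and 71.8 to 131 CPM in the lines. Of the called ones, ASAT3 was lower against each line. IPMS3 was lower against CHI4 (log2 difference -0.96, edgeR adjusted p = 0.000777) but not called against CHI9 (-0.23, 0.399). ASAT1 was at 0 in af replicates 3 and 4, ASAT2 in af replicate 3 and ASAT4 in af replicates 1 and 3. Their part in the MEP pathway differences was not tested.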

How the data were processed

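Total RNA (RNeasy) was made into TruSeq libraries, per the labels' protocols. The authors deposited whole-number read counts per gene and lane, not normalized; the submitters' processing notes name Trimmomatic, TopHat2, SAMtools and HTSeq, with no build, annotation or strand setting given in the sources used here. The 2 lanes of each of 12 libraries were summed here. Entries that name no gene were left out: reads in no gene made up 8.49% to 12.2%, ambiguous reads 3.67% to 6.68% and multiply aligned reads 4.68% to 7.56%.

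Counts were filtered (filterByExpr), TMM-scaled and tested in 1 model over the 3 genotypes with edgeR 4.0.16 (robust quasi-likelihood, Benjamini-Hochberg over 18326 genes, threshold 0.05) in R 4.3.3; DESeq2 1.42.0 and limma 3.58.1 were alternatives. The edgeR comparisons of genotypes, of later with earlier collections and of the af effect between them were tried on simulated counts with known changes. The simulated libraries of a collection shared no deviation, so the trial cannot show how the collection comparison behaves where they do. The test among all collections, the ratio, likeness and outlier procedures and the alternative tools were not part of that trial. Collections were tested in a model with genotype and collection as additive terms. The change in the af effect was tested in a model of genotype by later or earlier collections, without a term for single collections. Ratios used counts plus 0.5. Likeness used log2 CPM with a prior count of 2. Intervals cover the spread between libraries. Numbers mark shared sampling times per the labels. Deviations of same-collection libraries from their genotype means correlated at 0.00254 to 0.464 (median 0.289) across genes, against a median of -0.0923 for other pairs. The deviations of a genotype sum to 0, so positive same-collection values push the other pairs below 0, and the negative median is no separate result.

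All 8 members are reported; of each other list, the 4 loci with the largest difference called against both lines were named. Members and lists were chosen with earlier results of these data known. Locus names are from general knowledge; 7 of the 8 members, all but MCT, have a RefSeq gene of that enzyme on the same chromosome.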

Additional observations from a re-analysis of the deposited data

Results flagged for a closer look

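DXR in CHI4 replicate 2 stood at 990.1 CPM, far below the other CHI4 libraries (1855, 1944 and 1877 CPM); its gap to the nearest of them was 0.907 of the range of the group, above the 95% critical value of 0.829 for 4 samples (Dixon). Among 45 groups of 4 examined this was the only such value, and chance gives about 1 in 20. Without this library the log2 difference of af from the mean of the lines was -1.67 for DXR (edgeR adjusted p = 3.82e-06).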

How the results depend on the processing

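The count of 7 members lower in af, against the mean of both lines and against CHI4, was the same under all 23 alternatives; against CHI9 it was 7 or 8. Of 552 member values of af against the lines or a line under alternatives, 549 were negative; DXS1 was the member whose sign turned, without scaling factors. Collection as a replicate block gave 7 lower members in each comparison of af, with DXS1 at an adjusted p of 0.0572 (edgeR) against the mean of the lines. Without scaling factors the median of all genes moved by 0.42 and calls were 6616 higher and 1086 lower, against 2358 and 2500. The called members also moved towards 0. HDR and DXR were then at -1.15, DXS2 at -0.74 and MCT at -0.38 (edgeR adjusted p = 0.0198 for MCT). With TMM these genes were at -1.58, -1.58, -1.15 and -0.80, so the size of the printed differences depends on the scaling. Every af library had a larger TMM factor (lowest 1.10) than any library of a line (highest 0.988). Relative to the median of all genes, HDR was at -1.65 with and without the factors. The collection results were the least stable. The number of members that differed among collections was 1, but 2 with DESeq2, 2 with no low-count filter and 0 to 2 with single libraries left out. The number higher in collections 3 and 4 was 1, but 2 with DESeq2, 2 with no filter, 0 with no replicate block and 0 to 2 with single libraries left out. DXS2/DXS1 ranged from -1.11 to -0.711 with single libraries left out. In the mevalonate list 1 locus was higher with the replicate block (HMGR4, adjusted p = 0.0310, beside HMGR1 lower, 0.0147), 2 without scaling factors and 0 to 1 with single libraries left out. In the carotenoid list scaling by library totals gave 2 lower and 1 higher, the second lane alone for af and CHI4 replicate 4 gave 1 higher, and single libraries left out gave 0 to 1 higher. Apart from that, the replicate block changed no call named above. The cause of these changes was not tested. At the shallowest library 3 counts equal 0.334 CPM before TMM scaling, below every value of a member. Counting error does not cover the disagreement of lanes: in CHI4 replicate 4 the second lane gave 1.36 times the HDR and 1.35 times the MCT counts of the first, and 0.966 to 1.02 times for the other 6 members. In af replicate 4 it gave 0.393 times for MDS to 0.624 times for CMK, beside 0.450 times for all gene counts.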
